A study of Mus musculus with 14 samples.

Results

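The 35 genes described here are markers and effector genes of macrophages and monocytes, from the growth factor receptor Csf1r to the complement subunits C1qa, C1qb and C1qc. They were taken as a named list, chosen with earlier results of these data known, and looked up by gene symbol. All 35 were found, each with 1 probe set, among 21929 named genes on the array. They were read in 14 arrays of mouse proximal epididymis, the part of the duct that joins the testis through the efferent ducts.

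Macrophages are phagocytes that depend on signalling through the CSF1 receptor for their survival, and many tissues hold a resident population beside cells that arrive as blood monocytes. In the epididymis, macrophages lie around and within the base of the epithelium and take up material from dying cells. The genes are grouped by what their products do: growth factor and receptor, defining markers, pattern recognition, complement C1q, Fc receptors and their adapters, scavenging receptors, clearance of apoptotic cells, lysosomal proteins, and the MS4A family with Cd86.

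The mice were 8 weeks old and either lacked Arl13b in Krt5-positive basal cells (cKO) or were controls (Ctl). Each mouse had efferent duct ligation (EDL), which blocks fluid and sperm coming from the testis, on one side and a sham operation on the other. Tissue was collected 48 h after surgery, and 100 ng of total RNA was labelled per array. The groups were cKO EDL (3 arrays, replicates 2, 3 and 4), cKO sham (3 arrays, the same numbers), Ctl EDL (4 arrays, replicates 2 to 5) and Ctl sham (4 arrays, the same numbers). The allele that carries the deletion, the driver of recombination and the control genotype were not stated further. Arl13b is thus deleted in 1 cell type of a mixed tissue, and its signal in the whole tissue was 7.14 to 7.58 in cKO EDL, 7.15 to 7.24 in cKO sham, 7.33 to 7.60 in Ctl EDL and 6.87 to 7.46 in Ctl sham arrays, so cKO and Ctl arrays overlapped within each surgery. Epididymal marker genes (Adam28, Lcn8, Lcn9, Defb21, Cst11 and Rnase10) averaged 12.75 to 12.96 over the sham arrays. Array medians ran from 6.987 to 7.094. All values are log2 signal, in which 1 unit is a 2-fold difference, and values within a group follow the order of the replicate numbers. Levels of different genes come from different probes and are not compared with each other. In whole tissue, more cells of a type and more RNA per cell cannot be told apart.

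Start-site sequences are shown for 5 of the genes because many macrophage genes are bound by PU.1, the product of Spi1, and because Spi1 itself was measured in these arrays. Windows of 300 bases, 250 before the start and 50 after it, came from RefSeq on GRCm38.p6, and 26 of the 35 genes had at least 1. Capitals mark GAGGAA, a core of the PU.1 motif, or its reverse complement TTCCTC, and both strands were searched. The windows of Mrc1, Aif1, Cd68 and C1qb hold such a match, and that of Fcer1g holds none.
Mrc1, chr2:14229164-14229463, plus strand: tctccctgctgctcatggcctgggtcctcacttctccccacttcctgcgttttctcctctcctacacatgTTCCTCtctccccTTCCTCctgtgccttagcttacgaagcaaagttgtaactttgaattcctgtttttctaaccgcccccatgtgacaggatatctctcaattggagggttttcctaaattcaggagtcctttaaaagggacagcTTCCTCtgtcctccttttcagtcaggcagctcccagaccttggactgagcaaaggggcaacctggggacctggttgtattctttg
Aif1, chr17:35176003-35176302, minus strand: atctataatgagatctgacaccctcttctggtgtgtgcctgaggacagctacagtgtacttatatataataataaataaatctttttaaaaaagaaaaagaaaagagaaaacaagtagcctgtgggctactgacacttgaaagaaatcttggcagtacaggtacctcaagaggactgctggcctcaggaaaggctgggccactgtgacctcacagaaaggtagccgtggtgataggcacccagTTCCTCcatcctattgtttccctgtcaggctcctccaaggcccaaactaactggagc
Cd68, chr11:69666121-69666420, minus strand: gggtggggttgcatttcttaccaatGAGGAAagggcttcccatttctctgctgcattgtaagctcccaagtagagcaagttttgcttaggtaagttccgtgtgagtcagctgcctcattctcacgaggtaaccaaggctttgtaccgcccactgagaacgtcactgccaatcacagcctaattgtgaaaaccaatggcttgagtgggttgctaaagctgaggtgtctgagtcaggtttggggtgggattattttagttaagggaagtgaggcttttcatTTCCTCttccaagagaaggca
C1qb, chr4:136886151-136886450, minus strand: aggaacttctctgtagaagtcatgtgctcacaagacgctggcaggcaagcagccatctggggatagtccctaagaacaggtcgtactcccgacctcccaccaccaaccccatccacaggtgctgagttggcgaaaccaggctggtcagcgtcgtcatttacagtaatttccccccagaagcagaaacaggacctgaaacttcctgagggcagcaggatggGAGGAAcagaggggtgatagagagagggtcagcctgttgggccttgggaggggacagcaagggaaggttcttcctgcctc
Fcer1g, chr1:171234300-171234599, minus strand: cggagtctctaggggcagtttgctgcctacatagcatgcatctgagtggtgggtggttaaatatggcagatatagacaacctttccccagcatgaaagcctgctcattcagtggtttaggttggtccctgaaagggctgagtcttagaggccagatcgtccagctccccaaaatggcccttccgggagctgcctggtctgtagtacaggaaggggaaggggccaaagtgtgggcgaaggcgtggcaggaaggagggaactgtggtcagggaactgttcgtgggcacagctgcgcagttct
Among the 33 windows of these genes, 17 (51.5%) held the letters, against 9289 of all 32851 windows (28.3%). Counted by gene, this was 14 of 26 (53.8%), against 31.3% of 27025 genes. A C/EBP motif, TTGCNNAA, was in 12.1% of the windows of these genes and in 10.8% of all windows. The E-box CACGTG was in 3.03% of the windows of these genes and in 7.15% of all windows. Such a match describes the sequence only, and a window without these letters says nothing about the binding of the factor.

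After ligation most of the macrophage and monocyte genes rose in both genotypes and none fell. In cKO mice 28 of the 35 genes were higher in EDL than in sham tissue at an adjusted p under 0.05 (limma, Benjamini-Hochberg over all 21929 genes), where 5.04% of all genes were higher and 4.74% lower. In Ctl mice 22 of 35 were higher, where 3.32% of all genes were higher and 4.57% lower. The median log2 change over the 35 genes was 0.99 in cKO mice (0.03 to 2.22) and 0.86 in Ctl mice (0.12 to 1.61), beside 0.01 for all genes in each. All EDL arrays were above all sham arrays for 32 genes in cKO mice (13.4% of all genes) and for 24 in Ctl mice (6.69%), and no gene of the list lay the other way, as 12.4% of all genes did in cKO and 7.41% in Ctl mice. At least a 2-fold change was fitted for 17 genes in cKO and 11 in Ctl mice. The share of all genes with a change of that size was not counted, so these 2 numbers have no background. Both genotypes shared 21 of the calls, 7 were made in cKO mice alone, 1 (Cd86) in Ctl mice alone, and 6 genes (Tlr2, Tlr4, Fcgr2b, Cd163, Clec10a and Apoe) passed in neither. The 2 comparisons take their group means from different arrays, but the limma fit estimated the spread of each gene over all arrays together. Their calls are therefore not independent. Without cKO EDL replicate 2 the Ctl call of Ms4a6d was lost (adjusted p = 0.062 in limma). Without Ctl EDL replicate 3 the cKO call of Itgam was lost (adjusted p = 0.0526 in limma).

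**Figure D1:**
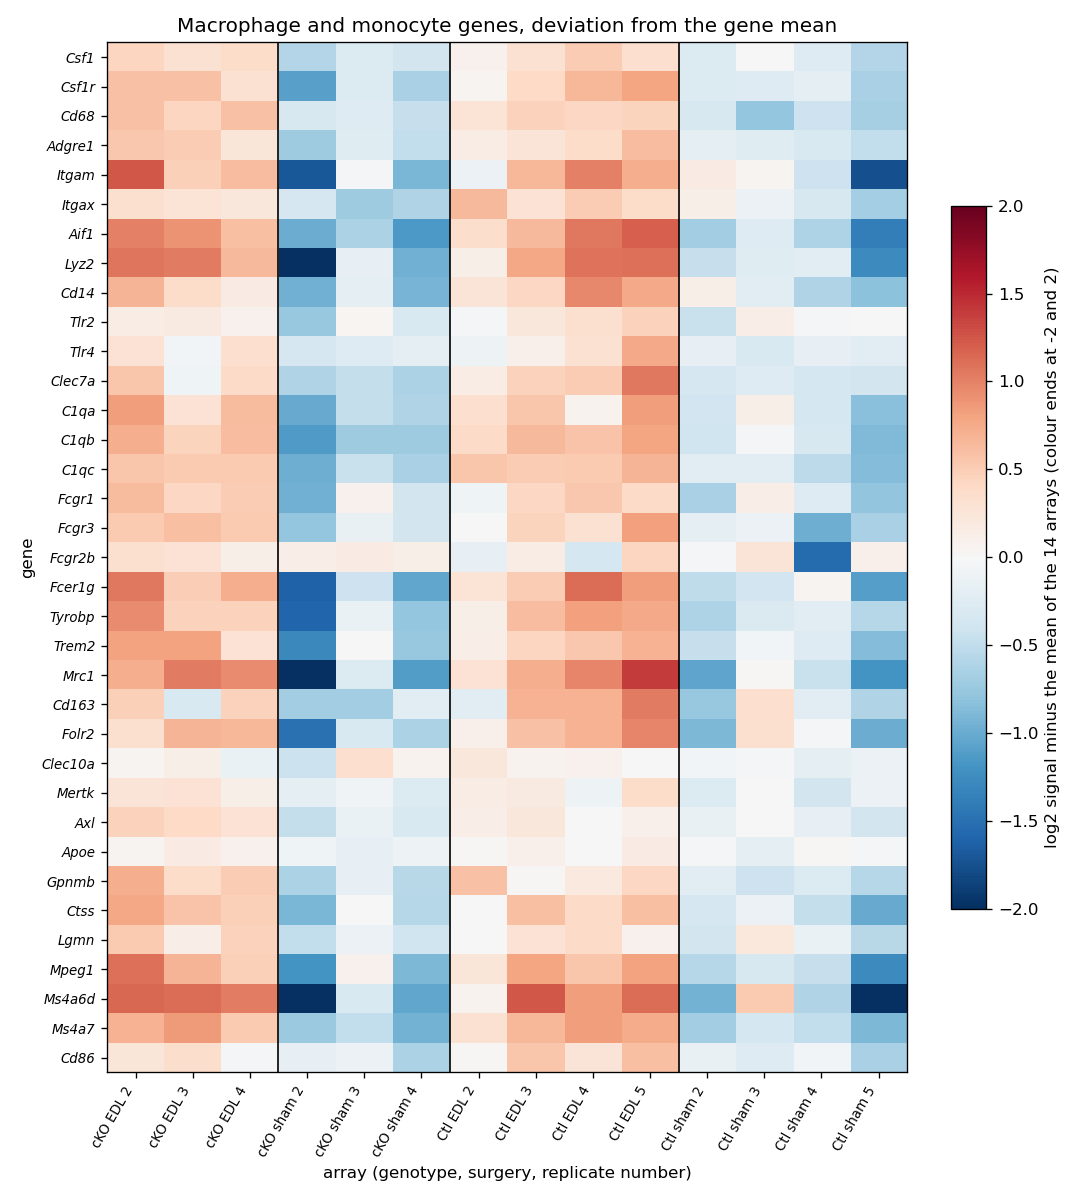
Colour gives the log2 signal of each of the 35 genes minus its mean over the 14 arrays, with arrays in columns by group and genes in rows by role. The cKO EDL and Ctl EDL columns are mostly red and the sham columns mostly blue, with cKO sham replicate 2 and Ctl sham replicate 5 the bluest.

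The shift appeared array by array. Relative to each gene's mean in Ctl sham tissue, the median over the 35 genes was 1.01, 0.82 and 0.88 in cKO EDL arrays and -0.41, 0.12 and -0.23 in cKO sham arrays. In Ctl mice it was 0.49, 0.84, 0.92 and 1.13 in EDL arrays and 0.03, 0.26, 0.08 and -0.35 in sham arrays. Every EDL array lay above every sham array, cKO sham replicate 2 and Ctl sham replicate 5 were the lowest, and Ctl EDL replicate 2 was the lowest of the EDL arrays. Single arrays, low or high, bear on the counts. Without the low Ctl sham replicate 5 the number of genes higher in Ctl EDL tissue was 13. It was 14 without Ctl EDL replicate 5, the highest array, and 27 without the low Ctl EDL replicate 2. Without any other array it was 16 to 28, and for cKO mice it was 19 (without cKO sham replicate 2) to 28. The calls of 12 genes held in both genotypes whichever array was left out: Csf1, Csf1r, Cd68, Adgre1, Itgax, Aif1, C1qb, C1qc, Mrc1, Gpnmb, Mpeg1 and Ms4a7. The series matrix, a second set of values deposited for the same arrays, gave larger median changes of 1.71 in cKO and 1.43 in Ctl mice. In the authors' deposited table, 32 of the 35 genes had an unadjusted p under 0.05 between EDL and sham tissue of cKO mice and 31 between those of Ctl mice. That threshold is looser than the adjusted one above, the model behind it was not stated, and the share of all genes passing it was not counted.

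**Figure D2:**
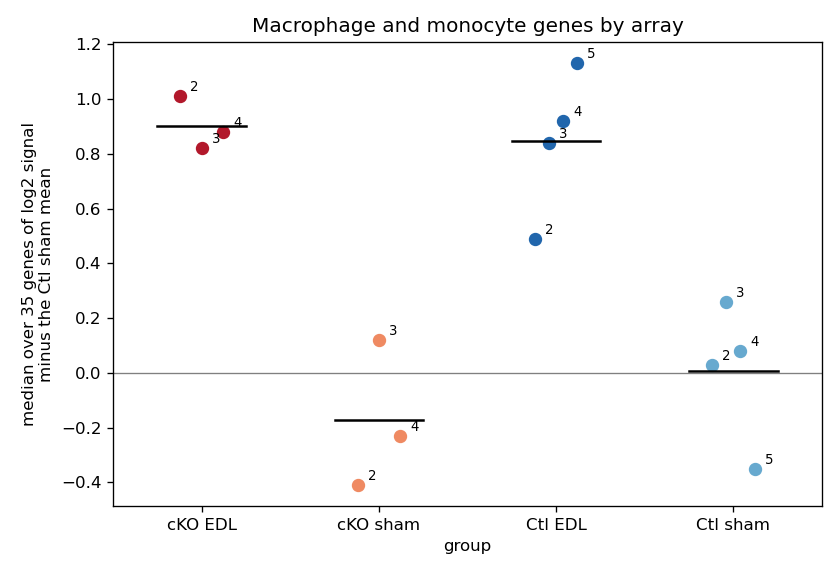
Each point is 1 array, labelled with its replicate number, and gives the median over the 35 genes of log2 signal minus the gene's mean in Ctl sham tissue (log2 units), with black bars for group means. The cKO EDL points run from 0.82 to 1.01 and the Ctl EDL points from 0.49 to 1.13, above all cKO sham (-0.41 to 0.12) and Ctl sham (-0.35 to 0.26) points.

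Csf1r, the receptor for CSF1 and IL-34 that defines the macrophage lineage, and Csf1, its ligand, rose in both genotypes. Csf1r gave 9.61, 9.61 and 9.32 in cKO EDL tissue, against 7.93, 8.75 and 8.37 in cKO sham tissue. Ctl arrays of Csf1r read 9.07, 9.41, 9.68 and 9.80 in Ctl EDL tissue, against 8.75, 8.76, 8.82 and 8.37 in Ctl sham tissue. In each genotype no EDL array overlapped a sham array, though Ctl sham replicate 5 sat well below the other Ctl sham arrays. The change was 1.16 in cKO mice (2.24-fold, 95% interval 0.72 to 1.61, adjusted p = 0.00264) and 0.82 in Ctl mice (1.76-fold, 0.43 to 1.20, adjusted p = 0.011). For the ligand, Csf1 gave 10.29, 10.17 and 10.22 in cKO EDL tissue, against 9.28, 9.59 and 9.5 in cKO sham tissue. Ctl arrays of Csf1 read 9.95, 10.17, 10.36 and 10.19 in Ctl EDL tissue, against 9.58, 9.86, 9.60 and 9.28 in Ctl sham tissue. These groups did not overlap either, and the changes were 0.77 in cKO (adjusted p = 0.00227) and 0.59 in Ctl mice (adjusted p = 0.00604).

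The 6 defining markers all rose in cKO mice, and 4 of them rose in Ctl mice. Adgre1 encodes F4/80, the antigen most used to stain mouse macrophages. Adgre1 gave 7.85, 7.81 and 7.55 in cKO EDL tissue, against 6.59, 7.07 and 6.82 in cKO sham tissue. Ctl arrays of Adgre1 read 7.46, 7.57, 7.67 and 7.92 in Ctl EDL tissue, against 7.11, 7.07, 7.0 and 6.81 in Ctl sham tissue. All EDL arrays were above all sham arrays, and the change was 0.91 in cKO (1.88-fold, adjusted p = 0.000821) and 0.66 in Ctl mice (1.58-fold, adjusted p = 0.00346). Cd68, a glycoprotein of the lysosome membrane in phagocytes, varied little within groups. Cd68 gave 10.97, 10.81 and 10.97 in cKO EDL tissue, against 10.06, 10.12 and 9.92 in cKO sham tissue. Ctl arrays of Cd68 read 10.66, 10.84, 10.80 and 10.83 in Ctl EDL tissue, against 10.06, 9.61, 9.97 and 9.72 in Ctl sham tissue. The SD within a group was 0.08 to 0.21, and the changes were 0.89 (95% interval 0.64 to 1.13) in cKO and 0.94 (0.73 to 1.15) in Ctl mice.

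Aif1, which encodes the calcium-binding protein IBA1, was near background in sham tissue. Aif1 gave 7.15, 7.04 and 6.75 in cKO EDL tissue, against 5.16, 5.51 and 5.0 in cKO sham tissue. Ctl arrays of Aif1 read 6.50, 6.80, 7.20 and 7.34 in Ctl EDL tissue, against 5.46, 5.89, 5.53 and 4.76 in Ctl sham tissue. Groups were again apart. The background was read from 1459 olfactory and vomeronasal receptor genes, whose 95th percentile was 5.34; this yardstick was chosen after the data were seen. Against that level Aif1 was at least 3.12-fold higher in cKO EDL than in cKO sham tissue (adjusted p = 0.000551), and the fitted change in Ctl mice was 1.55 (2.93-fold, adjusted p = 0.00044). Itgax, the integrin CD11c of dendritic cells and some macrophages, averaged 6.0 ± 0.05 in cKO EDL and 5.18 ± 0.19 in cKO sham tissue (SD, n = 3 each). It was at least 1.58-fold higher in cKO mice (adjusted p = 0.00624 in limma) and rose by 0.70 in Ctl mice (adjusted p = 0.00714).

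Itgam, the integrin CD11b of monocytes, macrophages and neutrophils, spread more widely. Itgam gave 9.55, 8.79 and 8.92 in cKO EDL tissue, against 6.61, 8.27 and 7.39 in cKO sham tissue. Ctl arrays of Itgam read 8.20, 8.97, 9.32 and 9.03 in Ctl EDL tissue, against 8.47, 8.37, 7.89 and 6.56 in Ctl sham tissue. Within cKO mice the groups were apart, while in Ctl mice they overlapped. The change was 1.66 in cKO (95% interval 0.64 to 2.68, adjusted p = 0.04) and 1.05 in Ctl mice (0.17 to 1.93, adjusted p = 0.153). The cKO call was lost without any 1 of cKO EDL replicates 2, 3 and 4, or cKO sham replicates 2 and 4, or Ctl EDL replicates 3 and 5, or Ctl sham replicate 4 (adjusted p = 0.0515 to 0.178). Lyz2 encodes lysozyme M, the driver gene of many myeloid Cre lines, and its probes may also read the near-identical Lyz1. Lyz2 gave 10.76, 10.72 and 10.33 in cKO EDL tissue, against 7.17, 9.53 and 8.73 in cKO sham tissue. Ctl arrays of Lyz2 read 9.81, 10.46, 10.77 and 10.79 in Ctl EDL tissue, against 9.22, 9.45, 9.47 and 8.41 in Ctl sham tissue. The lowest array by far was cKO sham replicate 2, and no EDL array overlapped a sham array. Lyz2 rose by 2.13 in cKO mice (adjusted p = 0.00895). In Ctl mice the difference of 1.32 had an adjusted p of 0.057, and it passed without any 1 of cKO sham replicates 2 and 3, or Ctl EDL replicate 2 (adjusted p = 0.00726 to 0.0385).

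**Figure D3:**
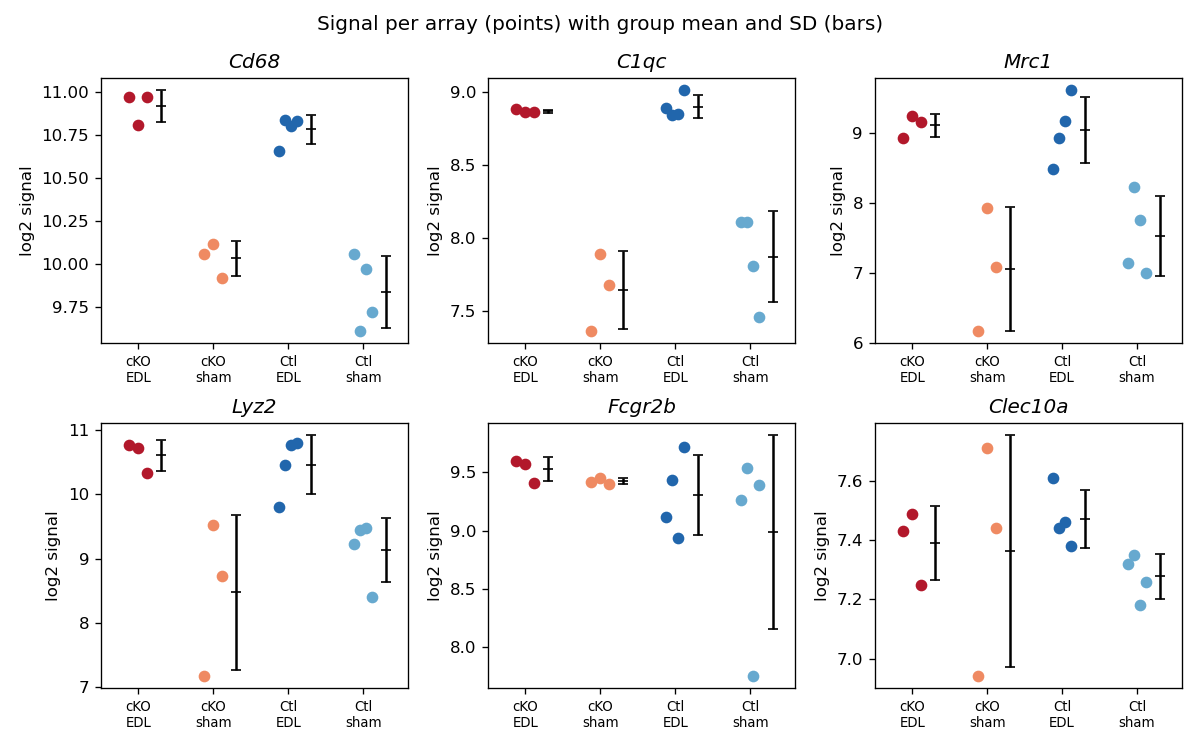
Points are the log2 signal of 6 genes in each array, and bars give the group mean and SD (3 cKO and 4 Ctl arrays per surgery). Cd68, C1qc and Mrc1 lie higher in all EDL than in all sham arrays of the same genotype, Lyz2 has 1 low cKO sham array, Fcgr2b has 1 low Ctl sham array, and Clec10a separates by surgery in Ctl but not in cKO mice.

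Of the 4 pattern recognition genes, Cd14 and Clec7a rose in both genotypes and the Toll-like receptors Tlr2 and Tlr4 passed in neither. Clec7a encodes dectin-1, a receptor for fungal glucans. Clec7a gave 7.78, 7.14 and 7.60 in cKO EDL tissue, against 6.62, 6.74 and 6.59 in cKO sham tissue. Ctl arrays of Clec7a read 7.37, 7.68, 7.72 and 8.27 in Ctl EDL tissue, against 6.88, 6.96, 6.86 and 6.85 in Ctl sham tissue. All EDL arrays were above all sham arrays. The change was 0.86 in cKO (adjusted p = 0.0102) and 0.87 in Ctl mice (1.83-fold, adjusted p = 0.00371), and the cKO call was lost without cKO EDL replicate 2 (adjusted p = 0.0528). Cd14, the co-receptor for lipopolysaccharide, averaged 8.04 ± 0.26 in cKO EDL and 6.95 ± 0.43 in cKO sham tissue (SD, n = 3 each), and 8.23 ± 0.32 in Ctl EDL and 7.25 ± 0.42 in Ctl sham tissue (SD, n = 4 each). It rose by 1.09 in cKO and 0.98 in Ctl mice (adjusted p = 0.0159 in cKO and 0.0142 in Ctl mice, limma), but the cKO call was lost without any 1 of cKO EDL replicate 2, or cKO sham replicates 2 and 4 (adjusted p = 0.0614 to 0.0802) and the Ctl call without Ctl sham replicate 5 (adjusted p = 0.0516). Tlr4, the lipopolysaccharide receptor that CD14 serves, read 7.21, 6.87 and 7.26 in cKO EDL tissue, against 6.59, 6.66 and 6.73 in cKO sham tissue. Its Ctl values were 6.82, 7.03, 7.22 and 7.68 in Ctl EDL tissue, against 6.75, 6.61, 6.76 and 6.71 in Ctl sham tissue. Sham arrays were tight and all EDL arrays lay above them, more widely spread, with differences of 0.45 in cKO (95% interval 0.09 to 0.81, adjusted p = 0.116) and 0.48 in Ctl mice (0.17 to 0.79, adjusted p = 0.06). It passed in cKO mice without Ctl EDL replicate 5 (adjusted p = 0.0288) and in Ctl mice without Ctl EDL replicate 2 (adjusted p = 0.0158). Tlr2, a receptor for bacterial lipopeptides, differed by 0.48 in cKO (0.08 to 0.88) and 0.33 in Ctl mice (-0.01 to 0.67), and passed in cKO mice without cKO sham replicate 3 (adjusted p = 0.0353).

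C1q, the recognition molecule of the classical complement pathway, is built from the chains of C1qa, C1qb and C1qc, which lie side by side on chromosome 4, and all 3 genes rose in both genotypes. C1qb gave 10.04, 9.75 and 9.93 in cKO EDL tissue, against 8.18, 8.60 and 8.60 in cKO sham tissue. Ctl arrays of C1qb read 9.69, 9.96, 9.88 and 10.10 in Ctl EDL tissue, against 8.92, 9.28, 8.99 and 8.43 in Ctl sham tissue. The groups were fully apart. C1qb rose by 1.45 in cKO (2.72-fold, 95% interval 1.06 to 1.84, adjusted p = 0.00014) and by 1.0 in Ctl mice (2.01-fold, 0.67 to 1.34, adjusted p = 0.000949). C1qc averaged 8.87 ± 0.01 in cKO EDL and 7.64 ± 0.27 in cKO sham tissue, with 8.90 ± 0.08 in Ctl EDL and 7.87 ± 0.31 in Ctl sham tissue (SD, n = 3 per cKO group and 4 per Ctl group). C1qc read alike in the EDL arrays of each genotype and varied more among sham arrays. C1qa rose by 1.29 in cKO (adjusted p = 0.00311) and by 0.81 in Ctl mice (adjusted p = 0.0235), with overlapping groups in Ctl mice, where the call was lost without any 1 of Ctl EDL replicates 3 and 5, or Ctl sham replicates 2, 4 and 5 (adjusted p = 0.053 to 0.0817).

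Fcer1g and Tyrobp encode the membrane adapters (the Fc receptor gamma chain and DAP12) that carry ITAM signalling motifs for many myeloid receptors. Fcer1g gave 10.12, 9.56 and 9.80 in cKO EDL tissue, against 7.45, 8.66 and 8.03 in cKO sham tissue. Ctl arrays of Fcer1g read 9.34, 9.58, 10.18 and 9.91 in Ctl EDL tissue, against 8.56, 8.69, 9.13 and 7.96 in Ctl sham tissue. EDL and sham arrays were apart in both genotypes, and cKO sham replicate 2 was the lowest of all. Fcer1g rose by 1.78 in cKO (3.43-fold, adjusted p = 0.0024) and by 1.17 in Ctl mice (2.24-fold, adjusted p = 0.0154), and the Ctl call was lost without any 1 of Ctl EDL replicates 4 and 5, or Ctl sham replicate 5 (adjusted p = 0.05 to 0.0524). Tyrobp gave 8.29, 7.81 and 7.81 in cKO EDL tissue, against 5.76, 7.21 and 6.57 in cKO sham tissue. Ctl arrays of Tyrobp read 7.46, 7.97, 8.17 and 8.11 in Ctl EDL tissue, against 6.73, 7.06, 7.13 and 6.78 in Ctl sham tissue. Here too the arrays separated by surgery. Its change was 1.46 in cKO (adjusted p = 0.00493) and 1.01 in Ctl mice (adjusted p = 0.0206), and the Ctl call was lost without any 1 of Ctl EDL replicates 3, 4 and 5, or Ctl sham replicates 2 and 5 (adjusted p = 0.0532 to 0.0651). Trem2, a lipid-sensing receptor that signals through DAP12, rose by 1.32 in cKO (adjusted p = 0.00751) and by 0.86 in Ctl mice (adjusted p = 0.0405). Its Ctl call was lost without any 1 of cKO sham replicate 4, or Ctl EDL replicates 3, 4 and 5, or Ctl sham replicates 2, 4 and 5 (adjusted p = 0.0529 to 0.13).

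Among the Fc receptors for immunoglobulin G, the activating Fcgr3 rose in both genotypes, the high-affinity Fcgr1 in cKO mice, and the inhibitory Fcgr2b in neither. Fcgr3 and Fcgr2b are close relatives, and their probes may share signal. Fcgr3 averaged 10.11 ± 0.04 in cKO EDL and 9.13 ± 0.32 in cKO sham tissue, with 9.95 ± 0.35 in Ctl EDL and 9.08 ± 0.41 in Ctl sham tissue (SD, n = 3 per cKO group and 4 per Ctl group). It rose by 0.98 in cKO and 0.87 in Ctl mice (adjusted p = 0.0158 in cKO and 0.0151 in Ctl mice). The cKO call was lost without cKO sham replicate 2 (adjusted p = 0.0851) and the Ctl call without any 1 of Ctl EDL replicate 5 and Ctl sham replicate 5 (adjusted p = 0.0507 to 0.0537). Fcgr2b gave 9.60, 9.57 and 9.41 in cKO EDL tissue, against 9.42, 9.45 and 9.40 in cKO sham tissue. Ctl arrays of Fcgr2b read 9.12, 9.43, 8.94 and 9.72 in Ctl EDL tissue, against 9.26, 9.54, 7.75 and 9.39 in Ctl sham tissue. All values lay between 8.94 and 9.72 except 1 low Ctl sham array, replicate 4. The differences were 0.10 in cKO (95% interval -0.63 to 0.84, adjusted p = 0.911) and 0.32 in Ctl mice (-0.32 to 0.96, adjusted p = 0.617), the Ctl value being -0.09 without that array. Fcgr1 rose by 0.92 in cKO mice (adjusted p = 0.0353), lost without any 1 of cKO EDL replicates 2, 3 and 4, or cKO sham replicates 2 and 4 (adjusted p = 0.0566 to 0.161), and differed by 0.70 in Ctl mice (adjusted p = 0.0734), where it passed without any 1 of cKO sham replicates 2 and 3, or Ctl EDL replicate 2, or Ctl sham replicate 3 (adjusted p = 0.0248 to 0.0476).

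Mrc1, which encodes the mannose receptor CD206 of resident and scavenging macrophages, had one of the larger changes of the list. Mrc1 gave 8.92, 9.24 and 9.15 in cKO EDL tissue, against 6.17, 7.93 and 7.08 in cKO sham tissue. Ctl arrays of Mrc1 read 8.48, 8.92, 9.17 and 9.60 in Ctl EDL tissue, against 7.14, 8.22, 7.75 and 7.0 in Ctl sham tissue. The groups were apart in each genotype, and cKO sham replicate 2 was the lowest array. Mrc1 rose by 2.04 in cKO (4.11-fold, 95% interval 1.19 to 2.89, adjusted p = 0.0048) and by 1.52 in Ctl mice (2.86-fold, 0.78 to 2.25, adjusted p = 0.0128). Folr2, a folate receptor of resident macrophages, rose by 1.36 in cKO mice (adjusted p = 0.0244), lost without any 1 of cKO EDL replicates 3 and 4, or cKO sham replicate 2 (adjusted p = 0.0644 to 0.12). In Ctl mice it differed by 0.99 (adjusted p = 0.0637) and passed without any 1 of cKO sham replicate 2, Ctl EDL replicate 2 and Ctl sham replicate 3 (adjusted p = 0.0204 to 0.0432). Cd163, the scavenger receptor for haemoglobin complexes, read 6.71, 5.94 and 6.70 in cKO EDL tissue, against 5.55, 5.54 and 6.01 in cKO sham tissue. In Ctl mice its values were 6.02, 6.94, 6.94 and 7.28 in Ctl EDL tissue, against 5.48, 6.58, 6.02 and 5.64 in Ctl sham tissue. Groups overlapped in both genotypes, with differences of 0.75 in cKO and 0.86 in Ctl mice (adjusted p = 0.178 in cKO and 0.0781 in Ctl mice), and the Ctl difference passed without any 1 of Ctl EDL replicate 2 and Ctl sham replicate 3 (adjusted p = 0.0142 to 0.0262). Clec10a, a galactose-type lectin of macrophages and dendritic cells, gave 7.43, 7.49 and 7.25 in cKO EDL tissue, against 6.94, 7.71 and 7.44 in cKO sham tissue. Its Ctl values were 7.61, 7.44, 7.46 and 7.38 in Ctl EDL tissue, against 7.32, 7.35, 7.18 and 7.26 in Ctl sham tissue. EDL and sham arrays were mixed in cKO mice and narrowly apart in Ctl mice, and the differences of 0.03 in cKO (95% interval -0.29 to 0.34) and 0.20 in Ctl mice (-0.08 to 0.47) did not pass. In cKO mice the sign turned under several settings, with values of -0.18 without cKO sham replicate 2 and -0.04 with arrays centred on their medians.

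Mertk and Axl are receptor tyrosine kinases through which phagocytes bind apoptotic cells by way of GAS6, and both rose in cKO mice. Protein S is a further ligand of MERTK. Axl gave 9.64, 9.57 and 9.46 in cKO EDL tissue, against 8.69, 9.04 and 8.87 in cKO sham tissue. Ctl arrays of Axl read 9.30, 9.40, 9.17 and 9.28 in Ctl EDL tissue, against 9.02, 9.16, 9.0 and 8.80 in Ctl sham tissue. Within cKO mice all EDL arrays were above all sham arrays, and in Ctl mice they were too. Axl rose by 0.69 in cKO (95% interval 0.46 to 0.92, adjusted p = 0.00108). In Ctl mice the difference was 0.29 (0.09 to 0.49, adjusted p = 0.0818), which passed without Ctl sham replicate 3 (adjusted p = 0.0498). Mertk rose by 0.40 in cKO mice (adjusted p = 0.0467), a call lost without any 1 of cKO EDL replicates 2, 3 and 4, or cKO sham replicates 2, 3 and 4, or Ctl EDL replicates 2 and 3, or Ctl sham replicates 2 and 5 (adjusted p = 0.0549 to 0.144). It differed by 0.34 in Ctl mice (adjusted p = 0.063) and passed there without any 1 of Ctl EDL replicate 4 and Ctl sham replicate 3 (adjusted p = 0.021 to 0.0362). Gpnmb, a glycoprotein of phagocytes laden with lipid or debris, rose in both. Gpnmb gave 10.62, 10.26 and 10.40 in cKO EDL tissue, against 9.26, 9.73 and 9.33 in cKO sham tissue. Ctl arrays of Gpnmb read 10.48, 9.92, 10.08 and 10.31 in Ctl EDL tissue, against 9.66, 9.48, 9.62 and 9.32 in Ctl sham tissue. The groups did not overlap, and the change was 0.99 in cKO (adjusted p = 0.00115) and 0.68 in Ctl mice (adjusted p = 0.00629). Apoe, the lipid-carrying apolipoprotein E, gave 12.78, 12.90 and 12.81 in cKO EDL tissue, against 12.64, 12.56 and 12.62 in cKO sham tissue. Ctl values were 12.76, 12.83, 12.72 and 12.89 in Ctl EDL tissue, against 12.70, 12.54, 12.75 and 12.71 in Ctl sham tissue. The spread was small in all groups, EDL and sham arrays were apart in cKO and overlapped in Ctl mice, and the differences of 0.22 in cKO (95% interval 0.05 to 0.39, adjusted p = 0.106) and 0.12 in Ctl mice (-0.03 to 0.27, adjusted p = 0.35) did not pass.

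Mpeg1 encodes perforin-2, a pore-forming protein of phagocyte vacuoles. Mpeg1 gave 9.91, 9.49 and 9.29 in cKO EDL tissue, against 7.62, 8.90 and 7.91 in cKO sham tissue. Ctl arrays of Mpeg1 read 9.06, 9.60, 9.36 and 9.61 in Ctl EDL tissue, against 8.24, 8.50, 8.35 and 7.54 in Ctl sham tissue. EDL and sham arrays were apart, and Mpeg1 rose by 1.42 in cKO (2.67-fold, adjusted p = 0.0085) and by 1.25 in Ctl mice (2.38-fold, adjusted p = 0.00796). The lysosomal cysteine protease Ctss rose by 1.11 in cKO and 0.88 in Ctl mice (adjusted p = 0.00939 in cKO and 0.0163 in Ctl mice). The cKO call was lost without cKO sham replicate 2 (adjusted p = 0.0536) and the Ctl call without any 1 of Ctl EDL replicates 3 and 5, or Ctl sham replicate 5 (adjusted p = 0.0527 to 0.0572). Lgmn encodes legumain, an asparaginyl endopeptidase that is also made by epithelia. It averaged 12.28 ± 0.21 in cKO EDL and 11.57 ± 0.19 in cKO sham tissue, with 12.09 ± 0.18 in Ctl EDL and 11.69 ± 0.33 in Ctl sham tissue (SD, n = 3 per cKO group and 4 per Ctl group). Lgmn rose by 0.71 in cKO mice (adjusted p = 0.0216), lost without any 1 of cKO EDL replicates 2 and 4, or cKO sham replicates 2 and 4 (adjusted p = 0.063 to 0.0969), and differed by 0.40 in Ctl mice (adjusted p = 0.142), passing without Ctl sham replicate 3 (adjusted p = 0.0291).

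Ms4a7 and Ms4a6d encode proteins that cross the membrane several times, both expressed in macrophages. Ms4a7 gave 7.45, 7.61 and 7.29 in cKO EDL tissue, against 6.01, 6.27 and 5.81 in cKO sham tissue. Ctl arrays of Ms4a7 read 7.07, 7.42, 7.59 and 7.50 in Ctl EDL tissue, against 6.07, 6.41, 6.27 and 5.86 in Ctl sham tissue. The arrays were apart by surgery with a group SD of 0.16 to 0.24. Ms4a7 rose by 1.42 in cKO (2.68-fold, adjusted p = 5.72e-05) and by 1.24 in Ctl mice (2.36-fold, adjusted p = 4.6e-05). Ms4a6d gave 8.01, 7.98 and 7.88 in cKO EDL tissue, against 4.83, 6.55 and 5.82 in cKO sham tissue. Ctl arrays of Ms4a6d read 6.93, 8.11, 7.69 and 7.98 in Ctl EDL tissue, against 5.92, 7.39, 6.26 and 4.70 in Ctl sham tissue. Sham arrays of Ms4a6d spread far more, with cKO sham replicate 2 and Ctl sham replicate 5 lowest, and the groups were apart in cKO and overlapped in Ctl mice. It rose by 2.22 in cKO (95% interval 1.08 to 3.37, adjusted p = 0.0175) and by 1.61 in Ctl mice (0.61 to 2.60, adjusted p = 0.0484). The cKO call was lost without any 1 of cKO EDL replicate 2 and cKO sham replicate 2 (adjusted p = 0.0566 to 0.0918) and the Ctl call without any 1 of cKO EDL replicates 2, 3 and 4, or cKO sham replicate 4, or Ctl EDL replicates 3, 4 and 5, or Ctl sham replicates 2, 4 and 5 (adjusted p = 0.061 to 0.133). Cd86, a costimulatory ligand for T cells, averaged 5.15 ± 0.20 in cKO EDL and 4.66 ± 0.28 in cKO sham tissue, with 5.32 ± 0.28 in Ctl EDL and 4.68 ± 0.27 in Ctl sham tissue (SD, n = 3 per cKO group and 4 per Ctl group). All 4 means were under the background level of 5.34, so no fold is given. It passed in Ctl mice (adjusted p = 0.0261) but not without any 1 of Ctl EDL replicates 3 and 5, or Ctl sham replicate 5 (adjusted p = 0.0833 to 0.0875), and did not pass in cKO mice (adjusted p = 0.132).

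**Figure D4:**
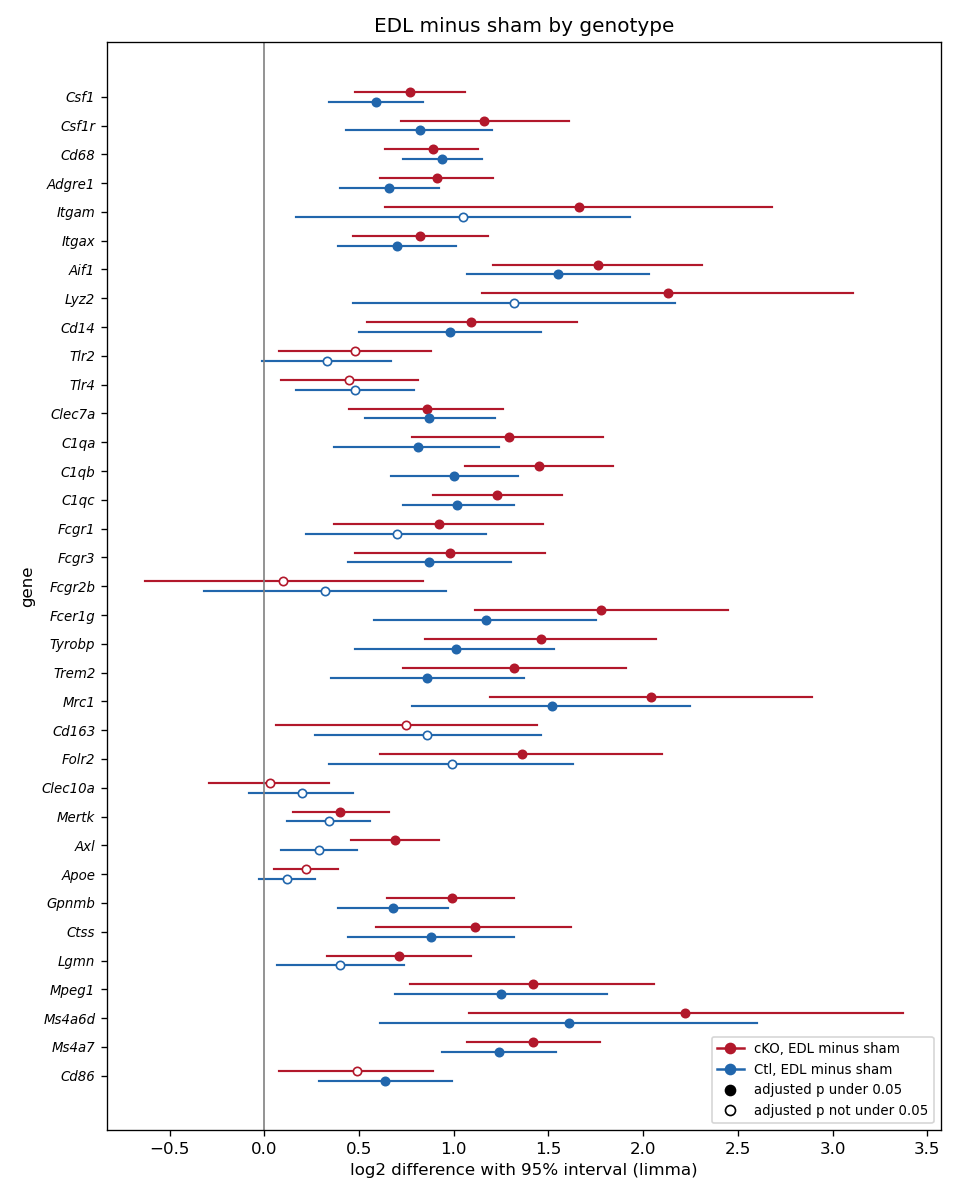
Points give the log2 difference of EDL minus sham tissue for each of the 35 genes with its 95% interval from limma, in cKO and in Ctl mice, and filled points have an adjusted p under 0.05. Every point lies to the right of 0, from 0.03 to 2.22 in cKO and from 0.12 to 1.61 in Ctl mice.

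Without ligation, no gene of the list differed between genotypes at an adjusted p under 0.05. Between cKO sham and Ctl sham tissue 0 of 35 passed in limma, as did 0.0% of all genes in either direction, with an adjusted p of 0.999 throughout and 1 gene at an unadjusted p under 0.05. The share of all genes under that unadjusted threshold was not counted. Signs were mostly negative: 30 of the 35 differences were below 0, with a median of -0.19 beside 0.0 for all genes. The single gene at an unadjusted p under 0.05 was C1qb, at -0.45 (95% interval -0.81 to -0.08, unadjusted p = 0.0199). Clec7a was lower in every cKO sham than in every Ctl sham array, the only gene of the list to separate that way (2.08% of all genes did), and none was higher in every array (2.82%). Lyz2 had the lowest difference, -0.66, with an interval of -1.58 to 0.25 that takes in both a fall of more than 2-fold and a small rise. The cKO sham group holds replicate 2, the lowest array for most of these genes: 3 of 35 genes were above their Ctl sham mean in it, against 28 in cKO sham replicate 3 and 7 in cKO sham replicate 4. Without cKO sham replicate 2 the median difference was -0.04, with 23 of 35 below 0, and without Ctl sham replicate 3 it was -0.09, with 25 below 0. It was further from 0 without cKO sham replicate 3, at -0.28 with 33 below 0. Over the other omissions the median was -0.24 to -0.15.

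No gene of the list passed between genotypes in ligated tissue. Between cKO EDL and Ctl EDL tissue 0 of 35 passed in limma (0.0% of all genes in either direction) and 1 had an unadjusted p under 0.05. Here too the share of all genes under the unadjusted threshold was not counted. The median difference was 0.06 beside 0.01 for all genes, and 24 of 35 differences were above 0. Without Ctl EDL replicate 2 the median was -0.03 and 15 of 35 were above 0, and over the other omissions the median was 0.03 to 0.14. The gene with an unadjusted p under 0.05 was Axl, with 9.64, 9.57 and 9.46 in cKO EDL arrays, against 9.30, 9.40, 9.17 and 9.28 in Ctl EDL arrays. Each cKO EDL array was above each Ctl EDL array (3.11% of all genes), none of the list lay wholly lower (2.63%), and the difference was 0.27 (95% interval 0.05 to 0.49, unadjusted p = 0.0193, adjusted p = 0.766 in limma). The intervals of the 35 genes reached at most 1.35 above 0 and -0.99 below it.

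**Figure D5:**
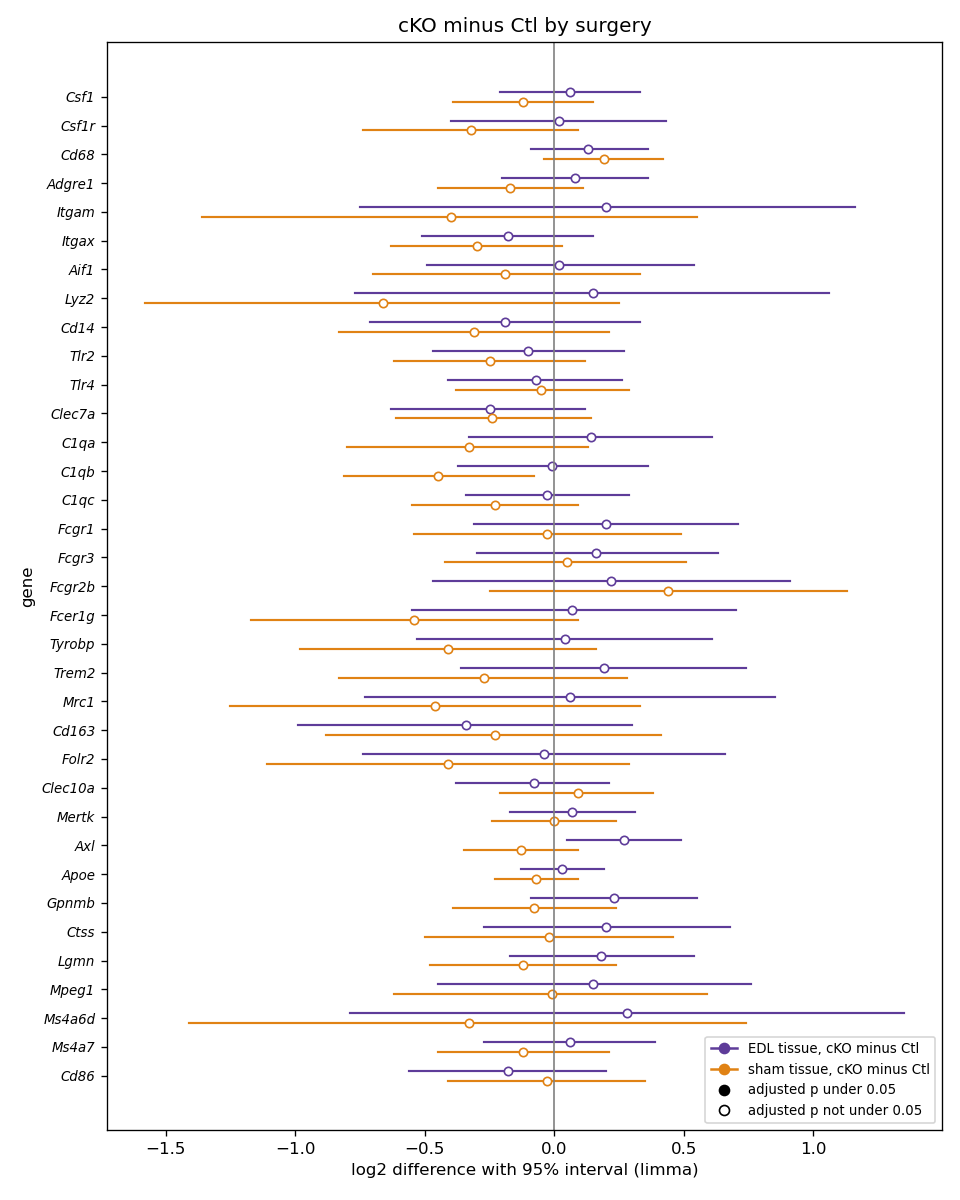
Points give the log2 difference of cKO minus Ctl for each of the 35 genes with its 95% interval from limma, in EDL and in sham tissue. All points are open, since no adjusted p was under 0.05; they run from -0.34 to 0.28 in EDL tissue and from -0.66 to 0.44 in sham tissue.

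The ligation response was numerically larger in cKO than in Ctl mice for 28 genes and smaller for 7, but the test of that difference (the interaction) passed for 0 of 35 genes (0.0% of all genes). Adjusted p-values ran from 0.985 to 0.997 in limma, and 1 gene, Axl, had an unadjusted p under 0.05 (difference of the changes 0.40, 95% interval 0.09 to 0.71, unadjusted p = 0.0148). The share of all genes under that unadjusted threshold was not counted for the interaction either. The median difference was 0.21, beside 0.01 for all genes. These 28 genes and 7 genes are not independent counts, since all were read in the same arrays, the low cKO sham replicate 2 among them. Without that array 23 genes had the larger response in cKO mice and the median was 0.08. Over the other omissions the median was 0.1 to 0.38. The intervals were wide: for Lyz2 the difference of 0.81 had an interval of -0.49 to 2.1, and for Csf1r the difference of 0.34 had one of -0.24 to 0.93. The genes called in 1 genotype alone are therefore not shown to respond differently.

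Genes that act before and around these markers moved in both directions. Spi1, which encodes the lineage factor PU.1, rose by 1.79 in cKO (adjusted p = 0.00333) and by 1.18 in Ctl mice (adjusted p = 0.0193), the Ctl call being lost without Ctl EDL replicates 4 or 5 or Ctl sham replicate 5 (adjusted p up to 0.062). Il34, the other ligand of the CSF1 receptor, fell by 1.35 on the log2 scale in cKO and by 0.87 in Ctl mice (adjusted p = 1.34e-06 in cKO and 2.56e-05 in Ctl mice). Over both genotypes its EDL arrays read 6.80 to 7.21 and its sham arrays 7.77 to 8.34. Csf1 and Il34 thus changed in opposite directions in the same tissue. Runx1, a transcription factor of blood stem cells that other cells also express, fell by 1.36 in cKO and 1.05 in Ctl mice. In that list of 14 growth factors and lineage factors, 4 rose and 3 fell in each genotype, and without Ctl EDL replicate 4, Ctl EDL replicate 5 or Ctl sham replicate 5 only 2 rose in Ctl mice. Among 27 further monocyte and macrophage markers 14 rose in cKO and 9 in Ctl mice and none fell, with 7 to 10 of them under the background level in a given group. Of these markers 8 rose in cKO mice without cKO EDL replicate 2, 7 rose there when cKO sham replicate 2 was left out, and 5 rose in Ctl mice without Ctl sham replicate 5. Cx3cr1, the fractalkine receptor, rose by 0.91 in cKO and 0.83 in Ctl mice (adjusted p = 0.00514 in cKO and 0.00371 in Ctl mice), and Siglec1, a sialic acid receptor of macrophages, by 1.20 in cKO and 0.87 in Ctl mice. Ccr2, the chemokine receptor of blood monocytes, averaged 8.40 ± 0.09 in cKO EDL and 6.21 ± 1.48 in cKO sham tissue (SD, n = 3 each), with 8.33 ± 0.72 in Ctl EDL and 6.70 ± 0.85 in Ctl sham tissue (SD, n = 4 each). It rose by 2.19 in cKO mice (adjusted p = 0.0384), and its difference of 1.63 in Ctl mice did not pass (adjusted p = 0.0834). The cKO call was lost without any 1 of the cKO EDL arrays, cKO sham replicate 2 or Ctl EDL replicate 3 (adjusted p up to 0.152), and the Ctl difference passed without cKO sham replicate 2 or Ctl EDL replicate 2 (adjusted p down to 0.0178).

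Several pathways in which the listed receptors work held genes that rose beside genes that fell. Of 13 genes of Fc receptor and ITAM signalling, 6 rose and 1 fell in cKO and 8 rose and 1 fell in Ctl mice. The Ctl rises were 5 to 7 whichever array was left out, with 5 without Ctl EDL replicate 3, Ctl EDL replicate 5 or Ctl sham replicate 5. Of these 13 genes, 3 were under the background level in each EDL group and 6 in each sham group. Btk, counted as higher in both genotypes and named here after its values were seen, was under the background level in all 4 groups. The tyrosine kinase gene Lyn rose by 0.74 in cKO and 0.58 in Ctl mice, and Vav1, a guanine nucleotide exchange factor of blood cells, by 1.27 in cKO and 0.82 in Ctl mice. Inpp5d, which encodes the inhibitory lipid phosphatase SHIP1, read 8.60 to 9.03 in cKO EDL and 11.53 to 11.72 in cKO sham arrays, with 8.45 to 8.85 in Ctl EDL and 11.44 to 11.67 in Ctl sham arrays. It fell by 2.82 on the log2 scale in cKO and by 2.86 in Ctl mice (adjusted p = 1.84e-09 in cKO and 1.96e-10 in Ctl mice). Of 12 genes of apoptotic cell recognition, 7 rose and 1 fell in cKO (4 rose without cKO sham replicate 2) and 5 rose and 1 fell in Ctl mice. Pros1, which encodes the MERTK ligand protein S, rose by 0.99 in cKO and 0.67 in Ctl mice (adjusted p = 0.000242 in cKO and 0.00188 in Ctl mice). Mfge8, which encodes a secreted bridge between apoptotic cells and phagocyte integrins, fell by 1.17 in cKO and 1.13 in Ctl mice on the log2 scale (adjusted p = 6.04e-08 in cKO and 1.28e-08 in Ctl mice). Of the 6 subunits of the phagocyte NADPH oxidase, 5 rose and 1 fell in each genotype, with Cyba up by 0.88 in cKO and 0.71 in Ctl mice. In cKO mice 3 of them rose when cKO EDL replicate 2 was left out, and 1 when cKO sham replicate 2 was. In Ctl mice 2 rose without Ctl EDL replicate 3, 4 or 5 or Ctl sham replicate 5, and the fall was lost without any 1 of 7 Ctl arrays.

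Among 12 complement partners 6 rose and 1 fell in cKO and 5 rose in Ctl mice. The rises were 3 in cKO mice without cKO sham replicate 2, and in Ctl mice 3 without Ctl EDL replicate 3, 2 without Ctl EDL replicate 4 and 1 without Ctl EDL replicate 5 or Ctl sham replicate 5. The fall in cKO mice was lost in 10 of 14 omissions. Of 18 lysosomal genes 7 rose and 2 fell in cKO and 6 rose and 1 fell in Ctl mice. In cKO mice 3 rose without cKO EDL replicate 2 or cKO sham replicate 2 and 4 without cKO sham replicate 4, and at most 1 fell whichever array was left out. The cathepsin gene Ctsz rose by 1.5 in cKO and 1.14 in Ctl mice (adjusted p = 0.000129 in cKO and 0.000395 in Ctl mice), and Ctsh fell by 1.17 in Ctl mice (adjusted p = 0.00612). Of 13 genes of lipid handling 4 rose and 2 fell in each genotype (2 rose in cKO mice without cKO sham replicate 2 and in Ctl mice without Ctl EDL replicate 5, and falls were lost in 12 of 14 omissions in cKO and 7 of 14 in Ctl mice), with Lgals3 (galectin-3) up by 1.01 in cKO and 0.79 in Ctl mice. Of 15 Toll-like receptors and partners 5 rose in cKO (3 without cKO EDL replicate 4 or cKO sham replicate 2) and 3 in Ctl mice (1 without Ctl sham replicate 5), among them Tlr7, a receptor for single-stranded RNA, by 1.78 in cKO mice (adjusted p = 0.00583) and 1.37 in Ctl mice (adjusted p = 0.0127). No gene of any of these lists differed between genotypes or in the interaction at an adjusted p under 0.05 (limma).

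Markers of other cell types moved with the macrophage genes. In cKO mice 3 of 5 fibroblast markers rose (Col1a1 by 1.63, Col1a2 by 1.45 and Lum by 1.41), as did 3 of 4 endothelial markers (Cdh5 by 1.23, Pecam1 by 0.78 and Kdr by 0.78). All of these calls but that of Cdh5 were lost without cKO sham replicate 2, among other arrays, with an adjusted p of up to 0.176 in 1 omission or another. In Ctl mice 0 of these 9 genes passed in limma, and 3 of each list had an unadjusted p under 0.05, all higher in EDL tissue. The mean of the 5 fibroblast markers was 9.85 to 10.35 in cKO EDL and 8.33 to 9.53 in cKO sham arrays, with 9.57 to 10.12 in Ctl EDL and 8.81 to 9.66 in Ctl sham arrays. That of the 4 endothelial markers was 7.52 to 7.77 in cKO EDL and 6.46 to 7.20 in cKO sham arrays, with 7.14 to 7.81 in Ctl EDL and 6.97 to 7.27 in Ctl sham arrays. cKO sham replicate 2, the lowest array for many macrophage genes, was also the lowest for both of these means, and Ctl sham replicate 5 was the lowest Ctl sham array for the fibroblast mean. The pan-leukocyte genes Ptprc, Cd53 and Coro1a rose in both genotypes and Cd52 in neither. Of these calls only that of Ptprc in Ctl mice held whichever array was left out, and the highest adjusted p over omissions was 0.0869 (Coro1a) in cKO and 0.133 (Cd53) in Ctl mice. The mean of the 4 was 8.57 to 8.98 in cKO EDL and 7.30 to 8.21 in cKO sham arrays, with 8.42 to 8.95 in Ctl EDL and 7.61 to 8.18 in Ctl sham arrays. The part of these other cells in the macrophage result was not tested.

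Neutrophils share Itgam, Tyrobp and Fcer1g with macrophages. Of 10 neutrophil markers 0 rose in cKO and 2 in Ctl mice (Cxcr2, by 0.63, and S100a8, at least 1.29-fold), with 4 in cKO and 5 in Ctl mice higher at an unadjusted p under 0.05. The Ctl sham mean of Cxcr2 was 5.35, near the background level of 5.34. The S100a8 call was lost without any 1 of several arrays (adjusted p up to 0.119). The mean of the 10 was 5.59 to 5.86 in cKO EDL and 4.94 to 5.58 in cKO sham arrays, with 5.34 to 5.99 in Ctl EDL and 5.01 to 5.37 in Ctl sham arrays. Ly6g, Mmp8 and Ngp were under the background level in all 4 groups. None of 7 dendritic cell, 7 T cell or 5 B cell markers passed in either genotype, with 0, 2 and 0 of them at an unadjusted p under 0.05 in cKO and 1, 0 and 0 in Ctl mice (limma). In every group 3 of the dendritic cell, 4 of the T cell and 4 of the B cell markers were under the background level. The dendritic cell mean was 5.39 to 5.62 in EDL and 5.37 to 5.59 in sham arrays of both genotypes. The T cell mean was 5.5 to 5.69 in EDL and 5.45 to 5.70 in sham arrays, and the B cell mean 4.60 to 4.94 in EDL and 4.56 to 4.94 in sham arrays. All 4 natural killer cell markers were under background in every group, so no fold is given, and Klrb1c passed as lower in EDL tissue of cKO mice (adjusted p = 2.68e-05). Of the mast cell markers, Kit rose in Ctl mice by 0.52, and Cpa3 and Mcpt4 were under background. The basal cell keratin gene Krt5 rose in both genotypes (by 0.89 in cKO and 0.44 in Ctl mice), as did Krt14 (by 1.31 in cKO and 0.67 in Ctl mice), whose Ctl call was lost without Ctl EDL replicate 2 or 4 or Ctl sham replicate 2 or 5 (adjusted p up to 0.0713). Trp63, the lineage factor of basal cells, differed by -0.03 in cKO and -0.01 in Ctl mice (adjusted p = 0.933 in cKO and 0.973 in Ctl mice). In both genotypes 5 of 6 epididymal markers fell, the mean of the 6 being 10.20 to 10.43 in cKO EDL and 12.88 to 12.96 in cKO sham arrays, with 10.09 to 10.28 in Ctl EDL and 12.75 to 12.89 in Ctl sham arrays. Sperm and spermatid transcripts fell for 2 of 5 genes in cKO and 5 of 5 in Ctl mice, and at an unadjusted p under 0.05 all 5 were lower in EDL tissue of both genotypes.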

How the data were processed

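RNA from 14 samples of mouse proximal epididymis was read on single-colour Affymetrix arrays. The number of arrays per group and the spread within groups limit the precision of each comparison. Per the submitters' processing notes, the authors used Affymetrix Expression Console, RMA and Partek 7.0, and they deposited one log2 value per probe set and array. RMA corrects background, applies quantile normalization and summarises probes, so differences between arrays in total RNA are removed. The authors also deposited a table with p-values of their own comparisons, whose model was not stated, and a series matrix of log2 values, which followed the log2 table array by array (correlation of deviations at least 0.945 for the same array and at most 0.609 for different ones). Its normalization is unknown, and 14 per-sample columns in the authors' table of p-values were not used.

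The log2 table held 22206 probe sets. Symbols were updated through RefSeq accessions (20456 matched), 14 symbols turned into dates by a spreadsheet were restored, and each of 21929 genes was represented by its brightest probe set on average; every gene of the list had 1. The main test was limma 3.58.1 in R 4.3.3 (lmFit, contrasts.fit and eBayes, two-sided, 10 residual degrees of freedom) on all 14 arrays with 1 mean per group, with Benjamini-Hochberg adjustment over all genes and a threshold of 0.05. Each mouse gave an EDL side and a sham side, but no label states which arrays share a mouse, so the test did not pair them. In simulated data of 21929 genes, 100 genes per comparison were changed at each size. Between EDL and sham in cKO mice, the test recovered 93% of changes of 1 log2 unit and 37% of changes of 0.5. In Ctl mice it recovered 96% and 52%. Between genotypes it recovered 91% and 49% in sham tissue, and 86% and 41% in EDL tissue. The interaction has no such value. These shares do not carry over to the genes of the list, whose 95% intervals were wider. Their median half-width was 0.44 in cKO and 0.38 in Ctl mice, against 0.26 and 0.22 over all genes. A group mean under 5.34, the 95th percentile of 1459 olfactory and vomeronasal receptor genes, was treated as a bound.

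The 35 genes and the lists set beside them were chosen with earlier results of these data known. Of each list set beside them, up to 4 genes with the smallest adjusted p in either EDL comparison may be named, and all genes of lists of 6 or fewer, with Arl13b, Krt5, Ptprc, Ccr2 and Cx3cr1 in addition. Some genes of these lists are not reported here. No test of a list as a set was made. The share of all genes at an unadjusted p under 0.05 was not counted, so counts at that threshold have no background. Alternatives covered the replicate number as a block, normalization, the source of values, a filter on low genes, the probe set rule, the variance model, array weights, the threshold and leaving out each array. Figures were drawn with matplotlib 3.10.9.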

Additional observations from a re-analysis of the deposited data

Results flagged for a closer look

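In 2 of 70 groups of 4 Ctl arrays, 1 array stood apart from the other arrays of its group by Dixon's criterion at the 95% level, and chance gives about 1 in 20. Csf1r read 8.37 in Ctl sham replicate 5, against 8.75 to 8.82 in the other Ctl sham arrays (gap over range 0.858). Fcgr2b, the inhibitory Fc receptor, read 7.75 in Ctl sham replicate 4, against 9.26 to 9.54 in the others (0.846). Both are low values in sham tissue, in different arrays. Without Ctl sham replicate 4 the difference of Fcgr2b between EDL and sham tissue of Ctl mice was -0.09, where all arrays gave 0.32. Without Ctl sham replicate 5 Csf1r still passed. The cause of either low value was not tested.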

How the results depend on the processing

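The count of genes higher after ligation kept its direction under every alternative run, and no called gene changed sign. In Ctl mice the count was 22, with 11 at an adjusted p under 0.01 and 29 at 0.10, and 21 to 26 under the other normalizations, value sources, filters, variance models, weights and samples. In cKO mice it was 28, with 19 at 0.01, and 25 to 29 otherwise. Leaving out 1 array gave 13 to 28 in Ctl and 19 to 28 in cKO mice, with median log2 changes of 0.71 to 0.98 in Ctl and 0.90 to 1.17 in cKO mice. The series matrix gave medians of 1.71 in cKO and 1.43 in Ctl mice; the cause was not tested. No gene passed between genotypes or in the interaction under any alternative run (limma).

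With the replicate block fixed, 26 genes passed in cKO mice (Itgam and Cd14 were lost, Cd14 at an adjusted p of 0.0529) and 22 in Ctl mice (Cd14, at 0.0531, C1qa and Trem2 lost, Cd163, Folr2 and Mertk gained), and a fixed block gives no value between genotypes. With it as a random block the counts were 28 and 26. The labels do not state that a number names a mouse, and arrays with the same number correlated by -0.002 to 0.198, each best with its own number in 4 of 7 pairs. Taken as pairs, 31 of 35 genes were higher on the EDL side in 7 of 7. The share of all genes that did so was not counted, so this number has no background to be read against.

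With 3 or 4 arrays per group, the median 95% half-width over the 35 genes was 0.44 in cKO and 0.38 in Ctl mice, and 0.59 for the interaction. Over all genes it was 0.26 in cKO and 0.22 in Ctl mice, and 0.34 for the interaction.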
